A study of Mus musculus with 28 samples.

Results

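Jak1, Ak4, Lepr, Pde4b, Raver2 and Dnajc6 lie in a stretch of mouse chromosome 4, chr4:100700000-102600000 (mm10), in which Sen cells had no region of histone H3 lysine 27 acetylation (H3K27ac). Only the end of Pde4b, at chr4:102607275, reaches past it. These 6 genes, of 21900 protein-coding genes in the RefSeq table, were chosen for that lack, so their H3K27ac and H3K9ac values in Sen are given as a description and carry no test. The cells are mouse lung adenocarcinoma cells grown in RPMI-1640 medium, and the title of the series concerns ferroptosis and fatty acid binding proteins. Res_shFabp7 cells are PD-1-resistant cells with a knockdown of Fabp7. Res_Ctrl cells are the resistant cells with the genotype Control, Res cells are wild-type resistant cells, and Sen cells are wild-type PD-1-sensitive cells. Each of the 4 groups has 3 libraries, labelled biological replicates, for H3K27ac and 3 for acetylation of lysine 9 (H3K9ac). Whether the lines are single clones is not given in the sources used here, and the labels name 1 knockdown. The 4 input libraries were not analysed here.

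H3K27ac marks active promoters and enhancers, and H3K9ac is found mainly at active promoters. Jak1 encodes a tyrosine kinase that sits on cytokine receptors, including those for interferons and for the interleukin 6 family, and that phosphorylates the STAT transcription factors when a cytokine binds. Loss of Jak1 function makes tumour cells blind to interferon gamma, a main signal from T cells. Lepr encodes the leptin receptor, which signals through Jak2 and Stat3. Ak4 encodes a mitochondrial adenylate kinase, Pde4b a phosphodiesterase that breaks down cyclic AMP, Dnajc6 auxilin, which helps to uncoat clathrin vesicles in neurons, and Raver2 an RNA-binding partner of polypyrimidine tract binding proteins.

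The measured values were the peaks of each library and the sequence tags counted in them. The 24 lists held 11771 to 28934 peaks and 2241387 to 11543731 tags in peaks, and the total number of reads of each library is unknown. Sen H3K27ac replicate 1 stood apart, with 15856 peaks and 2241387 tags in peaks, against 23348 and 21407 peaks with 5909254 and 5297037 tags in the other Sen H3K27ac libraries. None of the 3 had an H3K27ac peak at a member, so the lack of peaks there is the same with and without that library. No peak lay at Fabp7 in any of the 24 libraries, so the lists give no check of its knockdown. Of 8 epithelial and lung markers 7 had an H3K27ac region, 6 of them in all 12 libraries. Nkx2-1 had no region, and Epcam had a peak in 1 Res library alone. None of 6 immune markers had a region. The summed scaled H3K27ac tags of the epithelial markers were 2235 to 2455 in Res_shFabp7, 1688 to 2838 in Res_Ctrl, 2177 to 2358 in Res and 2352 to 2644 in Sen. Of 5 fibroblast markers 4 had a region, and their sums were 29.8 to 31.3 in Res_shFabp7, 22.2 to 33.3 in Res_Ctrl, 107 to 133 in Res and 0 to 36.9 in Sen. Of these, Col1a2 was listed in Res alone, and Pdgfra and Dcn in 1 Res library each. Cdh5, the only endothelial marker of 4 with a region, gave 246 to 286 in Res_shFabp7, 293 to 325 in Res_Ctrl, 38.5 to 42.3 in Res and 0 to 114 in Sen. The H3K9ac sums of the same lists are given beside the H3K9ac results, and the part of these marker differences in the results below was not tested.

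Of the 14 promoter sequences that RefSeq gives for the 6 genes (GRCm38.p6, the build called mm10, 250 bases before to 50 bases after the start), 5 are printed for sites on which the peaks sat or were missing. Capitals mark a match to 1 of 4 motifs searched on both strands, namely AP-1 (TGANTCA), CRE (TGACGTCA), STAT (TTCNNNGAA) and GC box (GGGCGG). The Jak1 promoter, at chr4:101265174-101265473 on the minus strand, is GC-rich (64.7%, 29 CpG), with a CRE at position -101 and a GC box at -49 from the start.
Jak1: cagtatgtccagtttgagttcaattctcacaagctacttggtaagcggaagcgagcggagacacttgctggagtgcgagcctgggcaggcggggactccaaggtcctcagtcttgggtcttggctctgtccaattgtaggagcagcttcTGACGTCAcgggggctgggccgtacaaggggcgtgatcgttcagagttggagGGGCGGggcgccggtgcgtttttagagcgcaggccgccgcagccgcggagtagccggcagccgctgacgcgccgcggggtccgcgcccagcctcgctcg
The Ak4 promoter printed, at chr4:101419039-101419338 on the plus strand, has 64.3% GC and 29 CpG, and a GC box on the minus strand at position 33. Another Ak4 promoter, at chr4:101419453-101419752 and not printed, has 2 GC boxes.
Ak4: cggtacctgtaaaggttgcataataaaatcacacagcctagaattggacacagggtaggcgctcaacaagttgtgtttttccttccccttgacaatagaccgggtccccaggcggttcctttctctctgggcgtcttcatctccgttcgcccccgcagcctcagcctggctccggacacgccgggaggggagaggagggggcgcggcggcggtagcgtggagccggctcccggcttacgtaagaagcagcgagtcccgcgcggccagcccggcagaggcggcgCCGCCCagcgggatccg
The Lepr promoter printed, at chr4:101717157-101717456 on the plus strand, has 61.3% GC and 18 CpG and no match to any of the 4 motifs. Another Lepr promoter, at chr4:101717656-101717955 and not printed, lies under the same H3K27ac region and has a GC box at -164.
Lepr: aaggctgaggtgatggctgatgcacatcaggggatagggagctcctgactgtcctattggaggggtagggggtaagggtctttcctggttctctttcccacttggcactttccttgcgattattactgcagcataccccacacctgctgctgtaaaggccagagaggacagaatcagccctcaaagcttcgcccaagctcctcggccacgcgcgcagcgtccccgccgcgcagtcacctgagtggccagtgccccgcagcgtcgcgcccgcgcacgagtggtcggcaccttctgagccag
The start of Pde4b that carried a peak, at chr4:102569810-102570109 on the plus strand, differs from these in base composition, with 43.3% GC, 2 CpG and a STAT match at position -150.
Pde4b: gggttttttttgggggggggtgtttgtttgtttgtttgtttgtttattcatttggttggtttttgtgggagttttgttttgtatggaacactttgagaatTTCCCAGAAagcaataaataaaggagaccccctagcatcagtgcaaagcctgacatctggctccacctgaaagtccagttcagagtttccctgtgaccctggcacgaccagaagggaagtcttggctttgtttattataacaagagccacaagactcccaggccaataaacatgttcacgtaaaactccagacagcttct
The Raver2 promoter, at chr4:101068788-101069087 on the plus strand, had no peak in any library and is the richest in GC of the 14, with 74.3% GC, 41 CpG and 3 GC boxes.
Raver2: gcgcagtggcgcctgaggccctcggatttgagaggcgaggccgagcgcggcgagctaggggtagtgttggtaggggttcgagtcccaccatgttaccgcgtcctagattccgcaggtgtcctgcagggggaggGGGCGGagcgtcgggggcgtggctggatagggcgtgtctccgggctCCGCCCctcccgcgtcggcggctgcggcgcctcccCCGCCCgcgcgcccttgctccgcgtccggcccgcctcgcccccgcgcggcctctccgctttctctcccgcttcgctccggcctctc
Among 32851 RefSeq promoters of the same length, a GC box was found in 35.7%, a STAT match in 8.30%, an AP-1 match in 7.81% and a CRE in 1.79%. No AP-1 match was found in the 14 promoters of the members. A match describes the letters of the window only.

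H3K27ac regions of the members were found at Jak1, Ak4, Lepr and Pde4b and at neither Raver2 nor Dnajc6. Peaks of the 12 H3K27ac libraries that overlapped were merged into regions, and a region was given to a gene when it lay within the gene or 1 kb of its ends. Jak1 had 4 such regions, Lepr 2, Pde4b 2 and Ak4 1, which makes 9 in all. Of the 9, only a region across the end of Pde4b lies outside the stretch. None of the 9 had a peak in a Sen library. In 3 of the 9, at the promoters of Jak1 and Ak4 and at an internal start of Pde4b, a peak was present in 9 of 9 libraries of Res_shFabp7, Res_Ctrl and Res. Over the genome 172 of 32703 H3K27ac regions (0.526%) had a peak in 9 of 9 of those libraries and in 0 of 3 Sen libraries, and 172 of the 13506 regions present in 9 of 9 (1.27%). Nothing is read from that contrast, since the stretch was chosen by it. Of the 14 promoter sequences 8 overlapped an H3K27ac region, which fell on 4 genes, and the same number overlapped an H3K9ac region. RefSeq gives outer gene ends only in the table used here, so exons and introns are not assigned.

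Across the whole stretch, 15 H3K27ac regions were found. The libraries had 11, 14 and 14 peaks there in Res_shFabp7, 12, 12 and 13 in Res_Ctrl, 10, 7 and 8 in Res, and 0 in each Sen library. Beside the 3 regions at members, 3 others had a peak in 9 of 9 libraries and in 0 of 3 Sen libraries, which makes 6, against 4 with peaks of a score of at least 100 and 4 with the same number of highest-scoring peaks from each library. The 3 others lay at the start of Cachd1 (chr4:100775686-100778663), between Jak1 and Ak4 (chr4:101355155-101357527) and at Leprot (chr4:101646272-101649176), the leptin receptor overlapping transcript. The region just outside this pattern was chr4:101291510-101293774, upstream of Jak1, which lacked a peak in Res_shFabp7 replicate 1 and in the 3 Sen libraries. The other protein-coding genes of the stretch, Pramel17, Gm52666, C130073F10Rik, Pramel18, Pramel19, Gm12790 and Gm12789, had no region of either mark in any library.

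**Figure D1:**
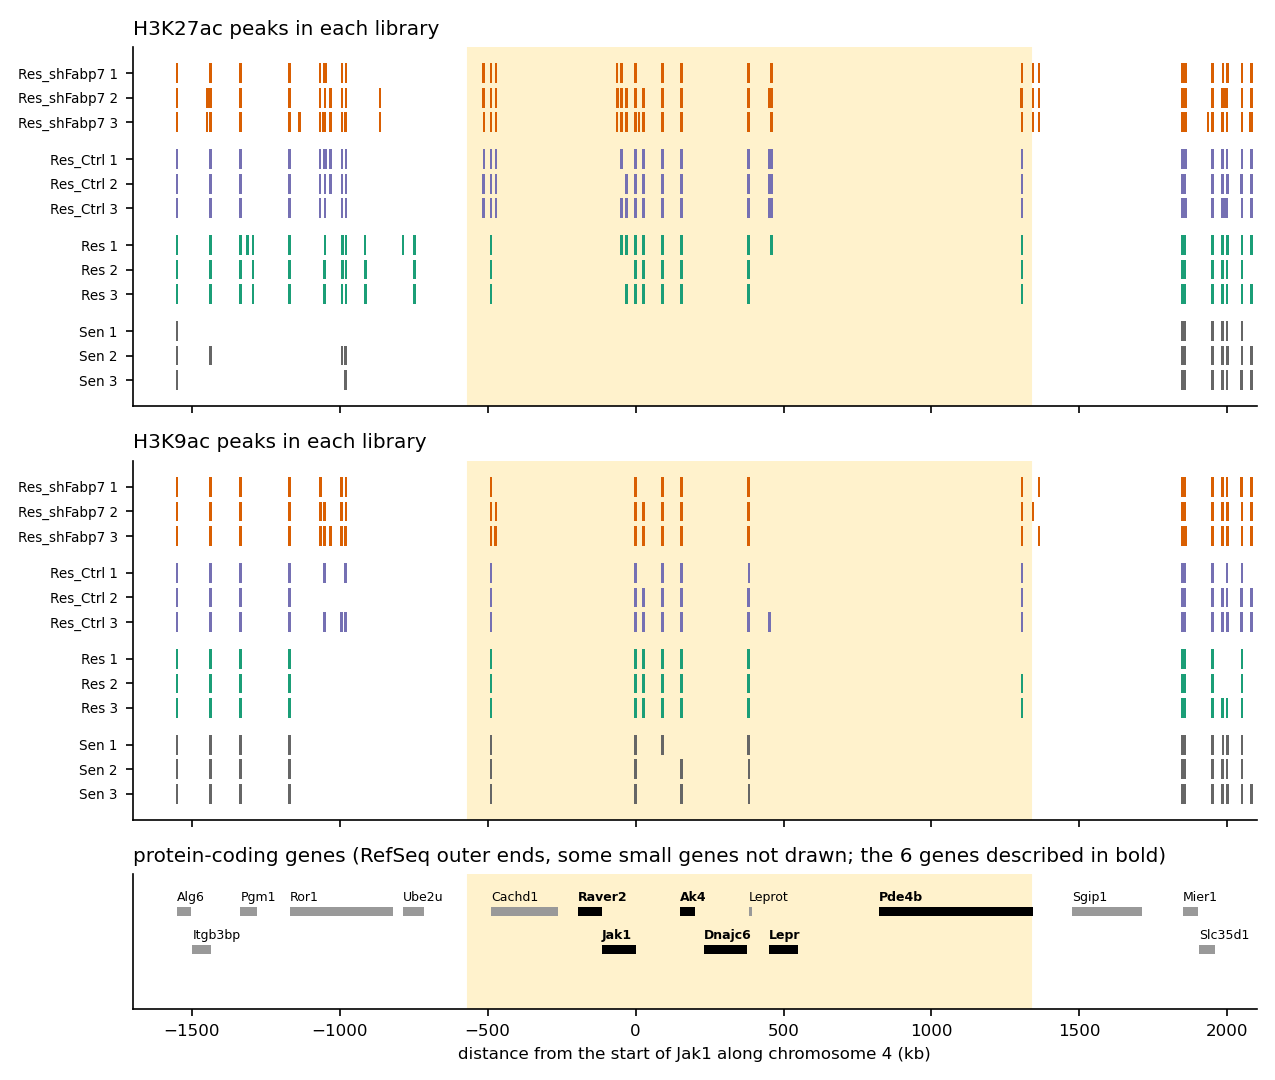
H3K27ac and H3K9ac peaks of every library around the Jak1 to Pde4b stretch, drawn as bars at their distance in kb from the Jak1 start, with the stretch shaded, genes marked and libraries from top to bottom in the order Res_shFabp7, Res_Ctrl, Res and Sen (short peaks are widened to stay visible). The Sen rows hold 0 H3K27ac peaks and 4 H3K9ac peaks per library within the shading.

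The lack of Sen regions reached past the members on both sides. In order of position, 21 consecutive H3K27ac regions from chr4:100348094 to chr4:102630328, 2.28 Mb, had no peak in any Sen library. Of 6483 such runs in the genome it held the most regions, which the choice of the stretch by this lack fixes in part, and 2 other runs on chromosome 4 spanned more, 5.09 Mb and 2.66 Mb. The Sen regions that bound it lay in Ror1 (chr4:100283776-100288505; 0, 53 and 59 tags in Sen replicates 1, 2 and 3) and at the shared start of Wdr78 and Mier1 (chr4:103112758-103115819; 67, 223 and 192 tags). They are 2.82 Mb apart. Directly below lay another run without a Sen peak, of 10 regions from chr4:99928592 to chr4:100235882 at Pgm1 and Ror1. Of its regions 3 were present in 9 of 9 other libraries. Only Sen peaks between chr4:100270568 and chr4:100288505, in Ror1, part it from the run of 21. The runs with the next highest numbers of regions were 1 of 15 on chromosome 17 at Qpct and Cdc42ep3 and 1 of 13 on chromosome 11 at Meis1, and neither held a region that was present in 9 of 9 other libraries.

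Jak1, the kinase, had the H3K27ac region of highest mean scaled tags at its promoter (chr4:101263274-101266075). The H3K27ac peak there held 154, 177 and 257 tags in Res_shFabp7, 169, 89 and 114 in Res_Ctrl, 190, 137 and 100 in Res, and no peak was listed in Sen. Scaled to tags per 1000000 of each library's tags in the 11679 regions present in all 12 libraries, these were 37.5, 33.8 and 34.5 in Res_shFabp7, 45.1, 30.4 and 32.5 in Res_Ctrl, and 33.4, 33.5 and 25.9 in Res. The 3 groups overlapped, at means of 35.3 ± 1.98, 36.0 ± 7.98 and 30.9 ± 4.38 scaled tags in Res_shFabp7, Res_Ctrl and Res (SD, n = 3 each), and only Sen stood apart. By tags, this peak ranked at percentiles 47.0 to 53.4 of the peaks of its library in Res_shFabp7, 27.2 to 51.4 in Res_Ctrl and 18.6 to 39.1 in Res, so it was a peak of middle to low size. The fold of the peak over background, as the authors' caller gave it, was 10.7 to 16.4 in Res_shFabp7, 6.91 to 10.2 in Res_Ctrl and 8.93 to 13.1 in Res.

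Within the Jak1 gene, 3 further H3K27ac regions varied between libraries of the same group. The region at chr4:101215587-101218541 had 97, 177 and 223 tags in Res_shFabp7, peaks in 2 of 3 Res_Ctrl libraries (114 and 124 tags), and a peak in 1 of 3 Res libraries (78 tags). The region at chr4:101233522-101235941 had a peak in 2 of 3 libraries of each of Res_shFabp7, Res_Ctrl and Res, with 45 to 128 tags. The region at chr4:101201840-101203915 was listed in Res_shFabp7 alone, with 40, 44 and 112 tags (9.75, 8.40 and 15 scaled tags). All these were small peaks, and a region without a peak has no count rather than a count of 0. Regions with a peak in 3 of 3 Res_shFabp7 and 0 of 3 Res_Ctrl libraries numbered 1163 of 29430 over the genome (3.95%). Among the 9 regions of the members there were 2, the last one at Jak1 and another across the end of Pde4b, and among the 15 of the stretch 1; the difference from the genome was not tested.

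Lepr, the receptor of the set, had no H3K27ac region in 9 of 9 libraries. The region a few kb inside the gene (chr4:101723097-101725371) had 85, 134 and 188 tags in Res_shFabp7, 112, 93 and 107 in Res_Ctrl, 69 tags in 1 Res library and none in the other 2 Res libraries or in Sen. In scaled tags it was 23.8 ± 2.72 in Res_shFabp7 and 30.7 ± 0.961 in Res_Ctrl (SD, n = 3 each), with every Res_Ctrl library above every Res_shFabp7 library. At its promoter (chr4:101715223-101718668) peaks were listed in 1 of 3 Res_shFabp7 libraries (42 tags), in 3 of 3 Res_Ctrl libraries (75, 151 and 70 tags) and in no Res or Sen library. A peak in 3 of 3 Res_Ctrl and 0 of 3 Res libraries was found at 1470 of 26430 regions over the genome (5.56%), and at 3 of the 13 regions of the stretch with a peak in either group, the Lepr promoter being the only one at a member.

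Ak4, the adenylate kinase, had a single H3K27ac region, at its promoter (chr4:101418637-101421087). It held 136, 150 and 253 tags in Res_shFabp7, 156, 127 and 136 in Res_Ctrl, and 203, 138 and 130 in Res, with no peak listed in Sen. Its scaled tags were 33.1, 28.6 and 34 in Res_shFabp7, 41.7, 43.4 and 38.7 in Res_Ctrl, and 35.7, 33.8 and 33.6 in Res. The 3 Res_Ctrl libraries were above all others, Res_shFabp7 and Res overlapped, and Sen was lowest with no peak. The means were 31.9 ± 2.87, 41.3 ± 2.37 and 34.4 ± 1.15 scaled tags in Res_shFabp7, Res_Ctrl and Res (SD, n = 3 each).

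Pde4b, the phosphodiesterase, spans 520 kb, and its H3K27ac lay near the far end of the gene. The region over the internal start whose sequence is printed above (chr4:102569592-102571689) held 87, 127 and 175 tags in Res_shFabp7, 97, 66 and 100 in Res_Ctrl, and 149, 74 and 67 in Res, with no peak listed in Sen. The groups overlapped, at 23.0 ± 1.59, 25.6 ± 2.96 and 20.5 ± 4.91 scaled tags in Res_shFabp7, Res_Ctrl and Res (SD, n = 3 each). A region across the end of the gene (chr4:102607133-102609695) was listed in Res_shFabp7 alone, with 55, 86 and 204 tags, and the other 3 Pde4b promoters in RefSeq overlapped no region.

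Raver2 and Dnajc6 had no listed peak of either mark in any of the 24 libraries. The nearest H3K27ac region lay 49470 bases from Raver2 and 3473 bases from Dnajc6, and the nearest H3K9ac region 111214 and 3395 bases away. Raver2 and Jak1 overlap at their ends, from chr4:101151974 to chr4:101152370, a stretch that held no peak.

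**Figure D2:**
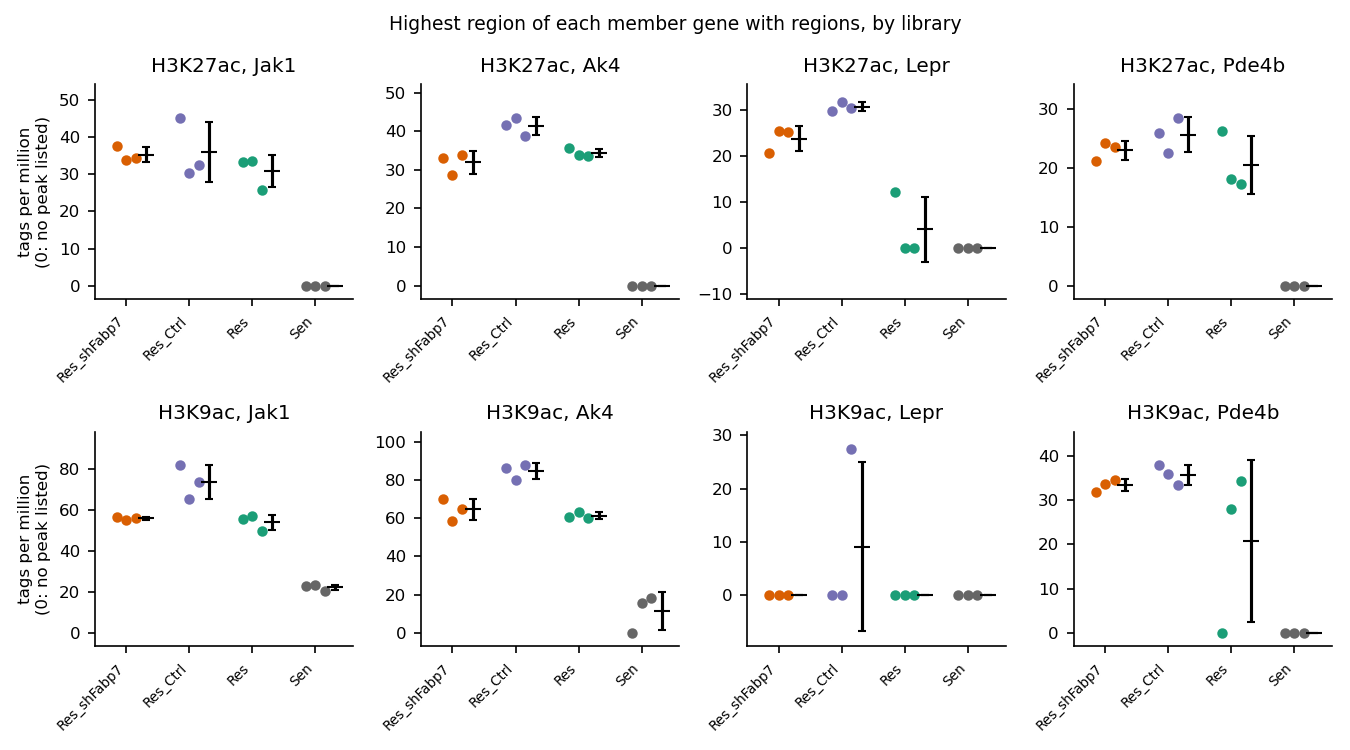
Scaled tags (tags per 1000000 tags in regions present in all 12 libraries of the mark) of the leading region of Jak1, Ak4, Lepr and Pde4b, with H3K27ac in the upper row and H3K9ac in the lower, a point for each library, and a bar for the mean ± SD of 3 libraries; a library with no listed peak is drawn at 0. Sen sits at 0 in the 4 H3K27ac panels, whereas H3K9ac at Jak1 is 22.2 in Sen against 54.1 in Res.

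H3K9ac was present in Sen at part of the same stretch. Of its 9 H3K9ac regions, 4 in each Sen library had a peak, against 6, 8 and 8 peaks in the Res_shFabp7 libraries, 6, 7 and 8 in Res_Ctrl and 6, 7 and 7 in Res. No H3K9ac region of the stretch, and none of the 5 at members, of which 1 lies past its end, had a peak in 9 of 9 libraries and in 0 of 3 Sen libraries, a pattern that 43 of 20543 H3K9ac regions over the genome had (0.209%). The count was 2 with peaks of a score of at least 100 and 4 with the same number of highest-scoring peaks from each library. Summed scaled H3K9ac tags of the epithelial markers were 1849 to 1906 in Sen and 1271 to 1359 in Res. For the fibroblast markers the sums were 0 to 31.7 in Sen and 80.7 to 91.2 in Res, and Cdh5 had no H3K9ac peak in either.

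At the Jak1 promoter (chr4:101263584-101265943) H3K9ac was listed in all 12 libraries, with 84, 201 and 204 tags in Sen. Its scaled tags were 56.7, 55.2 and 56.0 in Res_shFabp7, 82.0, 65.4 and 73.9 in Res_Ctrl, 55.5, 57.0 and 49.7 in Res, and 22.7, 23.3 and 20.7 in Sen. Sen was the lowest in every library, Res_shFabp7 and Res overlapped, and Res_Ctrl was the highest. The means were 56.0 ± 0.753, 73.7 ± 8.29, 54.1 ± 3.82 and 22.2 ± 1.36 scaled tags in Res_shFabp7, Res_Ctrl, Res and Sen (SD, n = 3 each), and the fitted difference of Res over Sen was 1.27 ± 0.12 on the log2 scale (SE), or 2.42-fold. The Sen peaks had scores of 136 to 176, against 358 to 459 in Res, where the score grows as the authors' p-value falls and its lowest value in the lists is 50.

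At the Ak4 promoter (chr4:101418622-101421324) H3K9ac was listed in 2 of 3 Sen libraries, with 136 and 181 tags and none in Sen replicate 1, whose H3K9ac list holds 4200199 tags in peaks against 10194965 and 11543731 in the other 2. The scaled tags were 70.1, 58.8 and 64.9 in Res_shFabp7, 86.5, 80.0 and 87.7 in Res_Ctrl, 60.5, 63.4 and 60.2 in Res, and 15.8 and 18.4 in the 2 Sen libraries with a peak. Both Sen peaks were near the caller's limit, with scores of 67.3 and 68.4. The start of Pde4b (chr4:102569675-102571978) had H3K9ac at 31.9, 33.7 and 34.7 scaled tags in Res_shFabp7, at 37.9, 35.8 and 33.5 in Res_Ctrl, at 28.0 and 34.4 in 2 of 3 Res libraries, and no peak in Sen. H3K9ac at Lepr was listed in Res_Ctrl replicate 3 alone, with 107 tags, and the region at the far end of Pde4b in Res_shFabp7 replicate 2 alone, with 74 tags. Of the neighbours, Cachd1 had a Res over Sen difference of 1.23 ± 0.10 and Leprot of 1.85 ± 0.10 on the log2 scale (SE), or 2.35-fold and 3.61-fold.

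Sites with H3K9ac and without H3K27ac in the same cells were uncommon. H3K9ac regions with a peak in 3 of 3 libraries of a group and no H3K27ac peak in that group made up 0.381% of 15494 in Res_shFabp7, 0.252% of 11134 in Res_Ctrl, 0.212% of 11776 in Res and 2.69% of 14591 in Sen. The promoters of Jak1, Cachd1 and Leprot were among the 393 such regions in Sen. The lists of Sen differ in depth between the marks. H3K9ac replicates 2 and 3 held 10194965 and 11543731 tags in peaks, and the H3K27ac lists 2241387 to 5909254. The part of depth in the higher share of Sen was not tested.

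The lists allow assumed levels of H3K27ac at Jak1 in Sen to be set beside the tags of the listed Sen peaks. A peak at the mean level of Res would hold 66.4, 139 and 127 tags in Sen replicates 1, 2 and 3, and 20.8, 35.9 and 30.2% of the peaks of those lists held as few. Had H3K27ac been lower in Sen by the same ratio of means as H3K9ac, 2.43, the peak would hold 27.3, 57.0 and 52.0 tags, and the smallest peaks of the lists held 32, 37 and 34. Only 0, 3.17 and 0.215% of the Sen peaks held so few tags. The smallest peak of a list is not the caller's limit at a given site, and the part of depth in the lack of Sen peaks was not tested. At Jak1 a peak lowered by that ratio would be under the smallest of the list in Sen replicate 1 and above it in replicates 2 and 3. The same held at Leprot, where a ratio of 3.65 would leave 27.6, 57.6 and 52.5 tags, as few as in 0, 3.17 and 0.215% of Sen peaks. It did not hold at the start of Cachd1, where a ratio of 2.40 would leave 48.4 tags in Sen replicate 1 and 92.2 in replicate 3, above the smallest peaks of all 3 lists. There 6.87, 21.8 and 15.7% of the peaks of Sen replicates 1, 2 and 3 held as few. At the Pde4b start, where Res was at 20.5 scaled tags, the level of Res itself would give 44.1, 92.1 and 84.1 tags, as few as in 4.38, 18.4 and 12.5% of Sen peaks. In bulk samples fewer cells with a mark, fewer DNA copies and less mark per copy cannot be told apart, and no peak in a list does not show that a mark was absent.

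Outside the stretch, the regions of chromosome 4 that Sen shared with Res also differed, on the side below it. Over the 240 H3K27ac regions before the stretch with a peak in all 6 libraries, the median difference of Res over Sen was 0.77 on the log2 scale, and 92.1% were above 0. Over the 447 after it the median was -0.17, with 25.3% above 0, and over other chromosomes -0.02. H3K9ac gave 0.69 before the stretch (244 regions), 1.27 within it (3 regions), -0.17 after it (442 regions) and -0.01 on other chromosomes. In the 20 Mb before the stretch, the medians were 1.05 for H3K27ac (28 regions) and 1.07 for H3K9ac (37 regions), and in the 20 Mb after it they were -0.15 for both marks (114 regions each). Regions that Sen lacks are not in these medians. They too were more frequent before the stretch: 15 of 55 regions of the 20 Mb before it that were present in 9 of 9 other libraries had no Sen peak (27.3%), against 2 of 118 of the 20 Mb after it (1.69%) and 140 of 12698 on other chromosomes (1.1%).

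The change of level lay between neighbouring genes on both sides. On the lower side, H3K9ac at Alg6, which encodes a glucosyltransferase of protein glycosylation, differed by -0.06 on the log2 scale between Res and Sen. At the next gene promoters upwards, those shared by Itgb3bp and Efcab7 and that of Pgm1, a phosphoglucomutase, it differed by 1.47 each, and at the promoter of Ror1, a receptor tyrosine kinase, by 0.92. H3K27ac gave 0.13 at Alg6, a peak of 51 tags in 1 of 3 Sen libraries at Itgb3bp and Efcab7, and no Sen peak at the promoters of Pgm1 and Ror1. On the upper side, the start shared by Wdr78 and Mier1 differed by 0.09 in H3K27ac and -0.11 in H3K9ac, and Slc35d1, a nucleotide sugar transporter, by -0.54 and -0.24. All these are differences in tags of Res over Sen, given without a test.

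**Figure D3:**
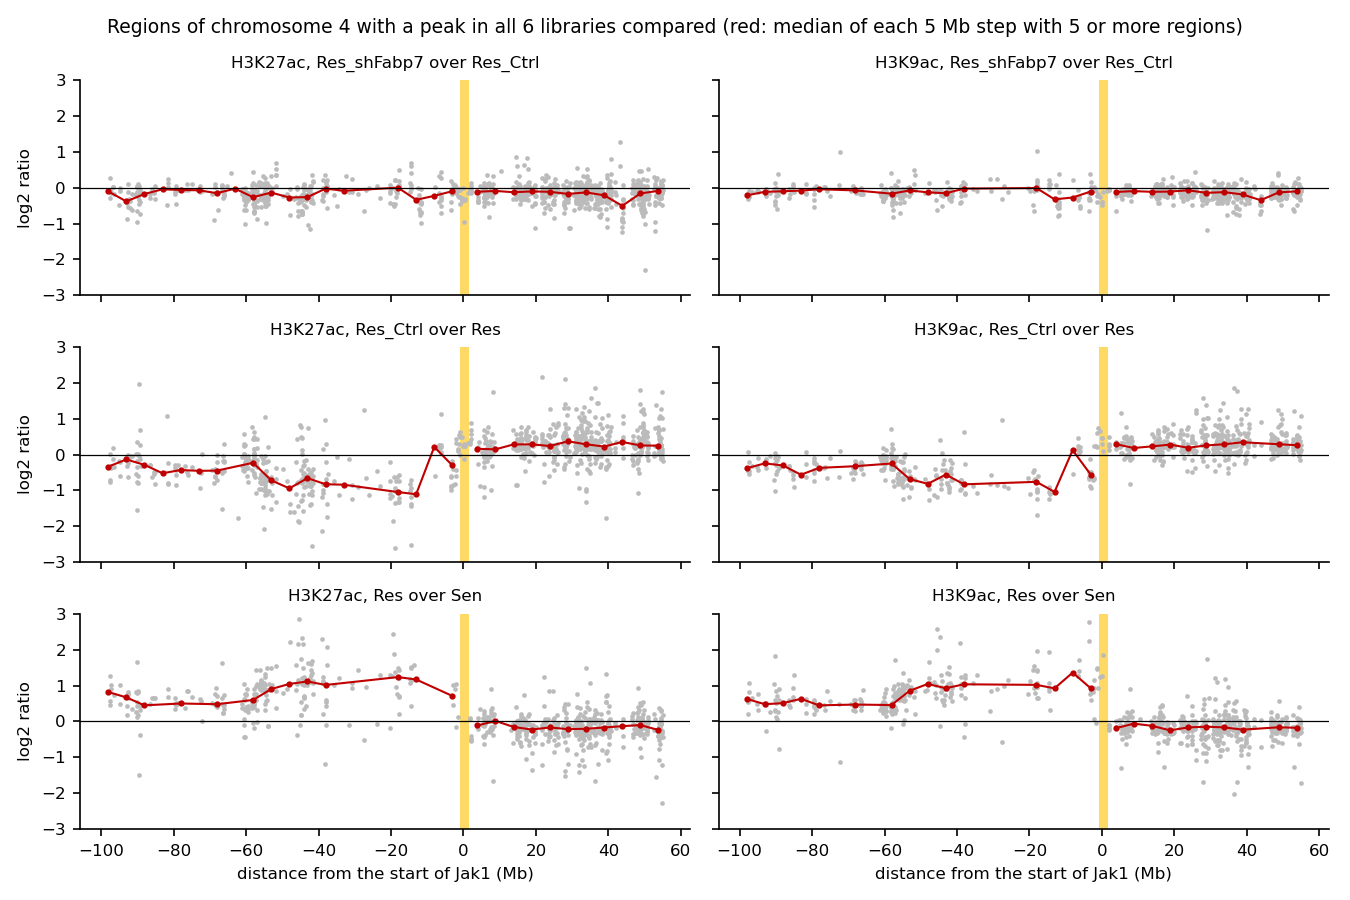
Log2 ratio of scaled tags for each region with a peak in all 6 libraries (grey points) against its distance in Mb from the Jak1 start along chromosome 4, with medians of consecutive steps of the chromosome in red, for Res_shFabp7 over Res_Ctrl, Res_Ctrl over Res and Res over Sen and both marks. In Res over Sen, the H3K27ac regions before the stretch (shaded) have a median of 0.77 and those after it of -0.17.

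Res_shFabp7 was then set against Res_Ctrl, a comparison that takes no part in how the genes were chosen. H3K9ac at Jak1 and at Ak4 was lower in Res_shFabp7, and no H3K27ac region of a member differed past the threshold. The test was edgeR's quasi-likelihood test with Benjamini-Hochberg adjustment over all regions that had a peak in all 6 libraries, at an adjusted p under 0.05. Under it, 615 of 16069 H3K27ac regions differed over the genome (3.83%, with 1.44% higher and 2.39% lower in Res_shFabp7) and 873 of 11115 H3K9ac regions (7.85%). With the replicate number as a block, which pairs the H3K27ac libraries of these 2 groups, 1341 H3K27ac regions differed (8.35%). Summed H3K9ac tags of the epithelial markers were 1630 to 1784 in Res_shFabp7 and 1718 to 1860 in Res_Ctrl. Those of the fibroblast markers were 21.97 to 29.45 in Res_shFabp7 and 0 to 32.5 in Res_Ctrl, and those of Cdh5 84.05 to 93.48 and 0 to 105.

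At Jak1, H3K9ac fell by 0.39 ± 0.10 on the log2 scale in Res_shFabp7 (adjusted p = 0.029, edgeR quasi-likelihood test), with the 3 Res_shFabp7 libraries below the 3 Res_Ctrl libraries. At Ak4 it fell by 0.39 ± 0.09 (adjusted p = 0.0192), at 64.6 ± 5.67 scaled tags in Res_shFabp7 and 84.7 ± 4.15 in Res_Ctrl (SD, n = 3 each), again without overlap. The Pde4b start had 33.4 ± 1.41 scaled tags in Res_shFabp7 and 35.7 ± 2.20 in Res_Ctrl, a difference of -0.08 ± 0.12 (adjusted p = 0.726). Of the 3 members tested, 2 were thus lower and none higher, where 5.08% of all H3K9ac regions were lower and 2.77% higher. Leaving out any 1 of the Res_shFabp7 libraries or Res_Ctrl replicate 1 ended the call at Jak1 (adjusted p up to 0.112), and leaving out Res_shFabp7 replicate 2 or 3 that at Ak4 (up to 0.1).

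In H3K27ac, the differences of Res_shFabp7 over Res_Ctrl at the 4 members tested were -0.02 ± 0.19 at Jak1, -0.35 ± 0.16 at Ak4, -0.34 ± 0.18 at Lepr and -0.14 ± 0.18 at Pde4b on the log2 scale (SE). Their adjusted p-values were 0.970, 0.262, 0.317 and 0.730 (edgeR quasi-likelihood test). None passed, 0 of 4 had an unadjusted p under 0.05, and DESeq2 called 0 of 4. With the replicate block 0 of 4 passed, at adjusted p-values of 0.186 to 0.99 (edgeR quasi-likelihood test). The median of the 4 was -0.24, beside 0.01 over all 16069 regions.

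Beyond the members, the region between Jak1 and Ak4 (chr4:101355155-101357527) was the only H3K27ac region of the 9 tested in the stretch to differ. It held 71, 84 and 139 tags in Res_shFabp7, 153, 77 and 123 in Res_Ctrl and 162, 104 and 132 in Res, or 17.3 ± 1.31, 34.1 ± 7.32 and 29.4 ± 4.42 scaled tags (SD, n = 3 each). The fall was 0.96 ± 0.21 on the log2 scale (adjusted p = 0.0315), and it did not pass without any 1 of the Res_shFabp7 libraries or without Res_Ctrl replicate 1 or 3 (adjusted p 0.0604 to 0.122). H3K9ac of the same region fell by 0.47 ± 0.12 (adjusted p = 0.0308, and 0.0535 with the replicate number as a block), and did not pass without those same libraries. At the start of Cachd1, which encodes a protein related to calcium channel subunits, H3K9ac fell by 0.26 ± 0.07 (adjusted p = 0.0458, edgeR quasi-likelihood test), a call lost in 9 of 14 alternatives. In all, 4 of 6 H3K9ac regions of the stretch were lower and 0 higher, and 1 of 9 H3K27ac regions lower and 0 higher.

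**Figure D4:**
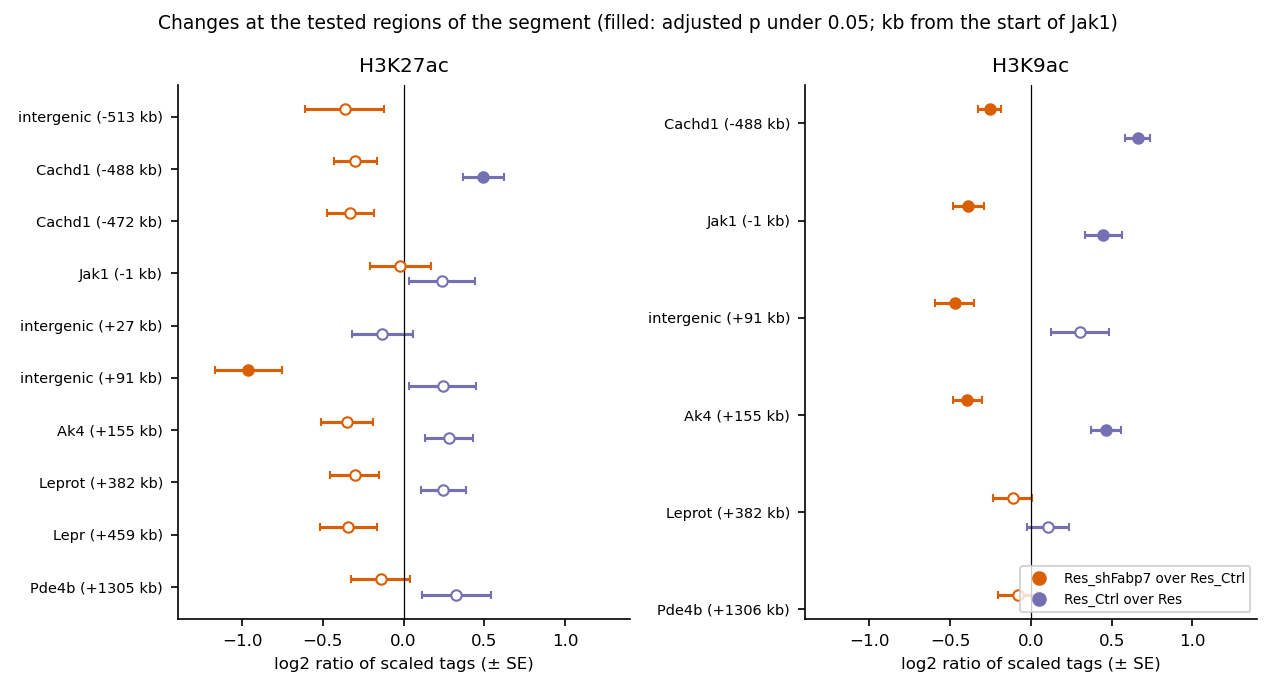
Log2 ratio ± SE of scaled tags of each region of the stretch tested, H3K27ac and H3K9ac, for Res_shFabp7 over Res_Ctrl and for Res_Ctrl over Res, with filled points at an adjusted p under 0.05. H3K9ac at Jak1 and Ak4 is filled in both comparisons, at -0.39 for Res_shFabp7 over Res_Ctrl and at 0.45 and 0.47 for Res_Ctrl over Res.

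Res_Ctrl set against Res gave higher H3K9ac at the same 2 members. At Jak1 the difference was 0.45 ± 0.11 on the log2 scale (adjusted p = 0.00748) and at Ak4 0.47 ± 0.09 (adjusted p = 0.00168), both higher in 3 of 3 Res_Ctrl libraries than in every Res library, and both passed in every alternative that could be run (edgeR quasi-likelihood test). These were the only members tested, since the Pde4b start lacked a peak in a Res library. The summed H3K9ac tags of the epithelial markers differed in the same direction, at 1718 to 1860 in Res_Ctrl and 1271 to 1359 in Res. Those of the fibroblast markers were 0 to 32.5 in Res_Ctrl and 80.7 to 91.2 in Res, those of Cdh5 0 to 105 in Res_Ctrl and 0 in Res, and no immune marker had a region. Their part in the calls at Jak1 and Ak4 was not tested. Differences were common in this comparison: 4416 of 10240 H3K9ac regions passed (43.1%), 21% of all being higher and 22.1% lower in Res_Ctrl. At Cachd1 H3K9ac was higher by 0.66 ± 0.08 (adjusted p = 4.11e-05), so that 3 of 5 H3K9ac regions of the stretch were higher and 0 lower.

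In H3K27ac, Jak1 differed by 0.24 ± 0.20 between Res_Ctrl and Res, Ak4 by 0.28 ± 0.15 and Pde4b by 0.33 ± 0.21 on the log2 scale (SE), with adjusted p-values of 0.393, 0.169 and 0.257 (edgeR quasi-likelihood test). None of the 3 passed, 0 of 3 had an unadjusted p under 0.05 and DESeq2 called 0 of 3, where 5085 of 13684 regions differed over the genome (37.2%, with 16.9% higher and 20.3% lower). Cachd1 alone of the 7 H3K27ac regions tested in the stretch was higher, by 0.49 ± 0.13 (adjusted p = 0.0125, and 0.0566 without Res replicate 2). Both comparisons use the same Res_Ctrl libraries, so a high value in Res_Ctrl enters them with opposite signs.

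Regions elsewhere on chromosome 4 moved as well in these comparisons. For Res_shFabp7 over Res_Ctrl, the H3K27ac medians on the log2 scale were -0.33 in the stretch (9 regions), -0.17 before it (366 regions), -0.13 after it (630 regions) and 0.02 on other chromosomes, and the H3K9ac medians -0.32 (6 regions), -0.13 (262 regions), -0.12 (468 regions) and 0.02. For Res_Ctrl over Res, the H3K27ac medians were 0.25 in the stretch (7 regions), -0.50 before it (320 regions), 0.26 after it (495 regions) and -0.02 on other chromosomes. H3K9ac gave 0.45 in the stretch (5 regions), -0.43 before it (234 regions), 0.27 after it (423 regions) and 0.00 on other chromosomes. In that comparison the stretch thus had the sign of the part of the chromosome after it. The part that such shifts of a whole chromosome take in the calls at Jak1 and Ak4 was not tested.

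Summed over the stretch, the tags in peaks per 1000000 tags in peaks of the library were for H3K27ac 259.9 ± 11.3 in Res_shFabp7, 362 ± 19.7 in Res_Ctrl, 212 ± 28.0 in Res and 0 in Sen (SD, n = 3 each). For H3K9ac they were 328 ± 8.58 in Res_shFabp7, 434 ± 16.2 in Res_Ctrl, 338 ± 22.1 in Res and 78.5 ± 3.03 in Sen. Res_Ctrl was the highest in both marks, and its libraries overlapped with those of neither Res_shFabp7 nor Res. Each of these 4 differences gave p = 0.1 in a two-sided exact permutation test, the smallest that 3 against 3 allows. The called length behind the H3K27ac sums was 26.0 ± 5.21 kb in Res_shFabp7, 23.9 ± 1.80 kb in Res_Ctrl and 15.9 ± 3.70 kb in Res. Per called kb and per 1000000 tags in peaks, a scale added after the data were seen, H3K27ac was 10.3 ± 2.15 in Res_shFabp7, 15.2 ± 1.25 in Res_Ctrl and 13.6 ± 1.41 in Res, and H3K9ac 20.3 ± 2.84 in Res_shFabp7, 29.9 ± 5.05 in Res_Ctrl and 25.1 ± 1.83 in Res. On that scale Res_Ctrl was still above Res_shFabp7 without overlap (p = 0.1 for each mark, exact permutation test), but overlapped with Res (p = 0.3 for each mark, exact permutation test).

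The 40 other genes of the JAK-STAT pathway, none of them in the stretch, did not move in 1 direction. For Res_shFabp7 over Res_Ctrl, 0 of 34 genes with a tested H3K27ac region passed, with 3 higher and 4 lower at an unadjusted p under 0.05, 0 called by DESeq2 and 0 with the replicate block, where 3.83% of all regions passed. In H3K9ac 1 of 32 was lower, where 5.08% of all regions were, namely Socs1, an inhibitor of the JAK kinases whose region is shared with Tnp2, at 134 ± 5.35 scaled tags in Res_shFabp7 and 165 ± 3.79 in Res_Ctrl (log2 -0.29, adjusted p = 0.00812). The medians of the list were -0.05 for each mark, beside 0.01 over all regions for each.

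For Res_Ctrl over Res, 5 JAK-STAT genes were higher and 5 lower of 32 in H3K27ac, where 16.9% of all regions were higher and 20.3% lower. In H3K9ac 9 were higher and 6 lower of 32, where 21% of all regions were higher and 22.1% lower. Ptpn1, a phosphatase that acts on JAK kinases, had 87.0 ± 2.06 scaled H3K27ac tags in Res_Ctrl and 25.1 ± 2.62 in Res (log2 1.81, adjusted p = 9.96e-06). Socs2, an inhibitor of cytokine signalling, had 212 ± 35 scaled H3K9ac tags in Res_Ctrl and 83.0 ± 9.05 in Res (log2 1.36). Stat5a, a STAT factor whose regions are shared with its neighbour Stat5b, went the other way, with 30.8 ± 3.86 scaled H3K27ac tags in Res_Ctrl and 80.1 ± 4.69 in Res (log2 -1.37). The receptor subunit Il6st (log2 -0.68) and the inhibitor Socs5 (H3K9ac, log2 -0.68) were lower too. The kinases Jak2 and Jak3 were higher in both marks, by 0.48 and 0.49 on the log2 scale at Jak2 and by 0.49 and 0.55 at Jak3, H3K27ac first.

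For Res over Sen, 5 JAK-STAT genes were higher and 4 lower of 28 in H3K27ac (30.8% of 12151 regions differed over the genome, 16.3% higher and 14.5% lower), and 9 higher and 7 lower of 31 in H3K9ac (54.3% of 11158, 28.1% higher and 26.3% lower). Jak2, which pairs with Jak1 at the interferon gamma receptor, was lower in Res in both marks, by 0.46 on the log2 scale in H3K27ac and 0.36 in H3K9ac, with 130 ± 11.2 scaled H3K27ac tags in Res and 177 ± 21.3 in Sen. Its H3K27ac call (adjusted p = 0.0203, edgeR quasi-likelihood test) did not pass without Res replicate 2 or 3 or Sen replicate 2, or with an offset for called bases. The region of Ptpn6, a phosphatase of cytokine receptors, is shared with Grcc10 and Atn1 and had 73.6 ± 4.69 scaled H3K27ac tags in Res and 150.1 ± 4.90 in Sen (log2 -1.05), and Stat5a had 59.3 ± 1.71 scaled H3K9ac tags in Res and 31.6 ± 5.69 in Sen (log2 0.87).

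The relatives of the other members were as mixed. Of 21 genes of those families, Res_shFabp7 over Res_Ctrl gave 0 of 19 in H3K27ac by edgeR (2 higher and 2 lower at an unadjusted p under 0.05, 1 lower by DESeq2, and 1 lower, Pde4a, with the replicate block) and 2 lower of 18 in H3K9ac, where 5.08% of all regions were lower. These were Pde4c, in a region shared with Rab3a (log2 -0.33), and Leprotl1 (log2 -0.23), both of which did not pass without any 1 of the Res_shFabp7 libraries. Res_Ctrl over Res gave 5 higher and 4 lower of 18 in H3K27ac, where 37.2% of all regions differed, and 6 higher and 5 lower of 18 in H3K9ac, where 43.1% did. Among them was Pde4d, another cyclic AMP phosphodiesterase, with 193 ± 8.94 scaled tags in Res_Ctrl and 33.4 ± 6.29 in Res (log2 2.53, adjusted p = 2.87e-06). Ptbp3, a polypyrimidine tract binding protein, had 93.1 ± 6.73 scaled H3K27ac tags in Res_Ctrl and 205.8 ± 16.0 in Res (log2 -1.13). Res over Sen gave 4 higher and 3 lower of 17 in H3K27ac, where 30.8% of all regions differed, and 5 higher and 7 lower of 18 in H3K9ac, where 54.3% did. In H3K27ac Pde4d was at 33.4 ± 6.29 scaled tags in Res and 97.1 ± 29.6 in Sen (log2 -1.56) and Ptbp3 at 205.8 ± 16.0 in Res and 79.9 ± 10.4 in Sen (log2 1.35). The calls at Pde4d and Ptbp3 did not pass with an offset for called bases.

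Genes with an H3K27ac pattern like that of the members were found on other chromosomes and on chromosome 4. Likeness was Pearson's r, over the 12 H3K27ac libraries, of log2(scaled tags + 1) with the mean of the 4 members that have a region, among 12996 genes outside that part of chromosome 4. The 12 values share their libraries and fall into 1 group at 0 and 3 groups above it, so r mostly says that Sen is low. The 5 most alike were Bmp7, a growth factor of the BMP family (r = 0.984), Klhl1 (0.984), Cmc2 (0.981), Srgap1 (0.978) and Siglec15 (0.977). Of the 10 most alike, 2 were on chromosome 4 below the stretch, Plaa (0.967) and Ift74 (0.966), which are neighbours. Bmp7 had 86.2 ± 28.0 scaled tags in Res_shFabp7, 147 ± 19.3 in Res_Ctrl, 52.4 ± 1.53 in Res and no peak in Sen. Cmc2 differs from the others of the 5 in having peaks in Sen, with 233 ± 11.7 scaled tags in Res_shFabp7, 253 ± 9.04 in Res_Ctrl, 206 ± 3.02 in Res and 119 ± 7.87 in Sen (SD, n = 3 each). Among the 10, Snx9 (r = 0.973) had peaks in Sen too, at 116 ± 6.45 scaled tags.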

How the data were processed

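ChIP-seq for H3K27ac and H3K9ac was deposited as 24 peak lists, 1 per library. Per the submitters' processing notes, reads were mapped to mm10 with Bowtie 1.1.2 and peaks called with MACS 1.4.2; which input each list was set against and how duplicate reads were treated are not given in the sources used here. Per the file headers each deposited peak has a count of tags (NumTags, not scaled), a score (which grows as the caller's p-value falls, lowest 50) and a fold over background (a ratio). Per the labels, libraries were read at 50 bases to between 53 M and 158 M reads, and no batch is named.

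For each mark, peaks from its 12 libraries sharing at least 1 base were joined into regions. Counts of regions with a peak in all 6 libraries compared were tested with edgeR 4.0.16 (R 4.3.3), TMM scaling, quasi-likelihood test and Benjamini-Hochberg adjustment; DESeq2 1.42.0 was an alternative. Printed levels are scaled tags per 1000000 TMM-scaled tags in regions present in all 12 libraries (11679 for H3K27ac and 10149 for H3K9ac). Tables and plots were made with Python 3.11.15. A gene's region is the one within it or 1 kb of its ends with the highest mean scaled tags. Scripts were tested on simulated data. P-values rest on the spread between libraries labelled biological replicates, counting error included. The members, lists and tests were chosen with earlier results of these data known. From the pathway lists, those named had the largest change past the threshold, at most 8 a list and comparison; Jak3 and the H3K9ac values of Jak2 were named after their values were seen.

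Replicate numbers come from the sample titles. For H3K27ac in Res_shFabp7 and Res_Ctrl, same-numbered libraries deviated together (r = 0.357, 0.126 and 0.234). Replicate 2 of Res_shFabp7, however, deviated more with replicate 3 of Res_Ctrl (r = 0.156). Same-numbered H3K27ac libraries also had positive r in Res_Ctrl and Res (0.355, 0.0743 and 0.105) and in Res and Sen (0.266, 0.0726 and 0.129). Different-numbered H3K27ac libraries of Res_shFabp7 and Res_Ctrl had r from -0.278 to 0.156. The main tests were set without pairing, and the replicate block, which pairs same-numbered libraries, is given as an alternative.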

Additional observations from a re-analysis of the deposited data

How the results depend on the processing

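With the replicate number as a block, H3K27ac regions called between Res_shFabp7 and Res_Ctrl numbered 1341, against 615 without it, and were 952 with DESeq2 and 1273 with an offset for called bases. In the other comparisons the replicate block gave 5743 (H3K27ac, Res_Ctrl over Res), 4085 (H3K27ac, Res over Sen), 716 (H3K9ac, Res_shFabp7 over Res_Ctrl), 4379 (H3K9ac, Res_Ctrl over Res) and 5886 regions (H3K9ac, Res over Sen), all within 1.5 times of the count without it. Of the regions in the stretch the block ended the H3K9ac calls of Res_shFabp7 over Res_Ctrl at Cachd1 and between Jak1 and Ak4, and changed no other.

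Leaving out 1 library gave 155 to 815 H3K27ac and 302 to 1095 H3K9ac regions between Res_shFabp7 and Res_Ctrl, 3849 to 4860 and 3631 to 4130 between Res_Ctrl and Res, and 2487 to 5262 and 4851 to 5798 between Res and Sen. The lowest counts came without Res_shFabp7 replicate 3 (155 and 302) and without Res replicate 2 (2487). H3K27ac regions of the stretch present in 9 of 9 libraries and 0 of 3 Sen numbered 6, or 4 with a score of at least 100, 4 with the same number of highest-scoring peaks, 6 to 7 when 1 library was left out, and 6 without Sen replicate 1, the library that stood apart; without it 5262 H3K27ac regions differed between Res and Sen, of 14341 tested, against 3739 of 12151 with it. The H3K9ac count, 0, was 2 with a score of at least 100, 4 with the same number of highest-scoring peaks and 0 to 1 when 1 library was left out.

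Tags of the stretch per called kb, an alternative that leaves out the scaling to depth, gave log2 0.19 (H3K27ac) and 0.25 (H3K9ac) for Res_shFabp7 over Res_Ctrl, against -0.48 and -0.41, and -0.27 for Res_Ctrl over Res in H3K27ac, against 0.77. The H3K27ac lists held 5097379 to 10521234 tags in peaks in Res_shFabp7, 3703250 to 4652053 in Res_Ctrl and 5080654 to 7351521 in Res, and the H3K9ac lists 4836435 to 7193169 in Res_shFabp7 and 2573446 to 4634436 in Res_Ctrl, so these 3 values are not comparable with the others. Per called kb and scaled to tags in peaks, added after the data were seen, they were -0.56, -0.56 and 0.16, with the sign unchanged. With 1 library left out the main values stayed at -0.52 to -0.44, -0.43 to -0.38, 0.67 to 0.86 and, for H3K9ac in Res_Ctrl over Res, 0.31 to 0.39. An offset for called bases reversed 4 named genes: Pde4c (H3K9ac, 0.28), Ifngr2 (H3K27ac, -0.0049) and Ifngr1 (H3K9ac, 0.025) for Res over Sen, and Ak5 (H3K27ac, 0.024) for Res_Ctrl over Res. Of the other values for single regions and genes, 95 no longer passed, 17 newly passed and 23 without a test moved by more than their error. The remaining 1871 stayed on the same side of the threshold or, without a test, within their error. A change of sign was counted only where a value passed, so values that never passed may have changed sign. Where Sen has no peak the lists hold no count, so depth limits what its absence shows.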

Other observations

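Among the other runs of H3K27ac regions that the 3 Sen libraries lacked, 2 lay on chromosome 4 below the Jak1 to Pde4b stretch and each held 4 regions present in all the other libraries. The run from chr4:95100332 to chr4:97758899, around Fggy and Hook1, had 12 regions, of which 4 had a peak in 9 of 9 libraries of Res_shFabp7, Res_Ctrl and Res. The run from chr4:89526319 to chr4:94615627 had 9 regions, of which 4 had a peak in 9 of 9.

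Among the JAK-STAT genes Lifr, the receptor for leukaemia inhibitory factor, had an H3K27ac region with a peak in 9 of 9 libraries and in 0 of 3 Sen libraries, on chromosome 15. Its summed scaled tags were 26.8 to 28.2 in Res_shFabp7, 18.8 to 34.7 in Res_Ctrl, 29.2 to 32.9 in Res and 0 in Sen. H3K9ac at Lifr was listed in 2 of 3 Sen libraries, at 0 to 23.5 scaled tags over the 3. In Res_shFabp7 it was 34.0 to 41.3, in Res_Ctrl 37.6 to 46.95 and in Res 49.5 to 51.7.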
